A study of Mus musculus with 24 samples.

Results

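The genes described here are the nuclear genes of the mitochondrial ribosome that carry the symbols Mrpl or Mrps with a number. Of the 53465 genes in the count table, 77 met this rule, after 5 pseudogenes and Mrps36 had been set aside. Mrps36 was set aside because its protein, also called KGD4, is known as a subunit of the 2-oxoglutarate dehydrogenase complex rather than of the ribosome. By position in the ribosome 51 of the 77 belong to the large subunit and 26 to the small subunit, since Mrps30 and Mrps18a, named for the small subunit, are known to sit in the large one. RNA was sequenced in RN2, a cultured mouse leukaemia line with the genotype Mll-Af9; NrasG12D, which every group shares. Cells had been transduced with a retroviral vector for a doxycycline-inducible shRNA, and single clones were grown out. The hairpins shOgdh346 (clones 1 and 5) and shOgdh2081 (clones 3 and 5) target Ogdh, the gene of the E1 subunit of 2-oxoglutarate dehydrogenase, and shRen713 (clones 2 and 7) is the control hairpin. Each clone gave 2 libraries at day 4 of doxycycline and 2 libraries at day 0, untreated, so that 24 libraries form 6 groups of 4, and each hairpin rests on 2 clones.

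The mitochondrial ribosome translates the few proteins encoded by mitochondrial DNA, all of them parts of the respiratory chain and ATP synthase. Its RNAs come from the mitochondrial genome, but each of its proteins is made in the cytosol from a nuclear gene and imported. The evolutionarily older part of the particle descends from the bacterial ribosome, while many other proteins have no counterpart in it. The class called mitochondria-specific here holds such proteins, and also Mrps18a and Mrps18b, which are relatives of bacterial S18. Because RNA and protein parts come from separate genomes, assembly depends on dedicated GTPases, helicases and RNA-modifying enzymes. Inhibition of mitochondrial translation is a much studied approach against leukaemia cells.

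Total counts per library ran from 7209186 to 20705468. The targeted gene checked the labels: Ogdh had 32.3 to 70.9 CPM (counts divided by library size after TMM scaling) in the 8 day 4 libraries of the Ogdh hairpins and 205.6 to 252.5 CPM in the 4 day 4 control libraries, a mean net change of -1.75 log2. At day 0 Ogdh had 126 to 149.8 CPM with shOgdh346, 163.2 to 234.6 CPM with shOgdh2081 and 202.2 to 249.6 CPM with shRen713. The shOgdh346 libraries thus lay below all control libraries already before doxycycline, and the net change is counted from that lower level. The net change used throughout is the day 4 minus day 0 change of an Ogdh hairpin minus that of shRen713, and the mean net change averages both Ogdh hairpins. Markers of mature neutrophils moved with the hairpins: 10 of 12 rose, where 17.9% of all genes tested rose, with a median mean net change of 4.26. Their summed level was 19050 to 45480 CPM with shOgdh346, 6512 to 12330 CPM with shOgdh2081 and 273.9 to 1345 CPM with shRen713 at day 4, and 364.2 to 3260 CPM with the Ogdh hairpins and 199.5 to 1957 CPM with shRen713 at day 0. Of 10 myeloid leukaemia markers 3 rose and 3 fell, with a median of 0.08, where 17.9% of all genes rose and 19.8% fell. Mpo and Elane, granule proteins of immature myeloid cells, fell by 2.46 and 1.32, and Itgam rose by 2.07. These 3 genes do not stand for the list, in which as many rose as fell. The summed level of all 10 markers at day 4 was 3747 to 4121 CPM with shOgdh346, 4235 to 7207 CPM with shOgdh2081 and 7026 to 8919 CPM with shRen713. At day 0 it was 3701 to 7705 CPM with the Ogdh hairpins and 4480 to 5721 CPM with shRen713. The part of these marker lists in the results on the ribosomal protein genes was not tested. Summed markers of B cells, T cells, erythroid cells and stroma did not pass 2.05 CPM in any library, and Cd3e, Hbb-bs and Col1a2 were at 0 in all 24. In bulk RNA, a smaller share of cells that express a gene and less RNA of it per cell cannot be told apart.

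After 4 days of Ogdh knockdown the mitochondrial ribosomal protein mRNAs were lower as a group, in both subunits and to a similar degree. The 77 genes together made up 2727 ± 203 CPM in the 4 Ogdh clones at day 4 and 3819 ± 41.6 CPM in the same clones at day 0 (SD, n = 4 clones). In the 2 control clones they made up 3633 ± 213 CPM at day 4 and 3760 ± 220 CPM at day 0 (SD, n = 2 clones). Among single libraries, the sum was 2486 to 3014 CPM in the 8 Ogdh libraries at day 4 and 3457 to 3812 CPM in the 4 control libraries at day 4, with no overlap. The ratio of the summed large to the summed small subunit stayed between 2.31 and 2.47 in all 24 libraries. It averaged 2.38 in the Ogdh clones and 2.45 in the control clones at day 4, and 2.41 in the Ogdh clones and 2.38 in the control clones at day 0.

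**Figure D1:**
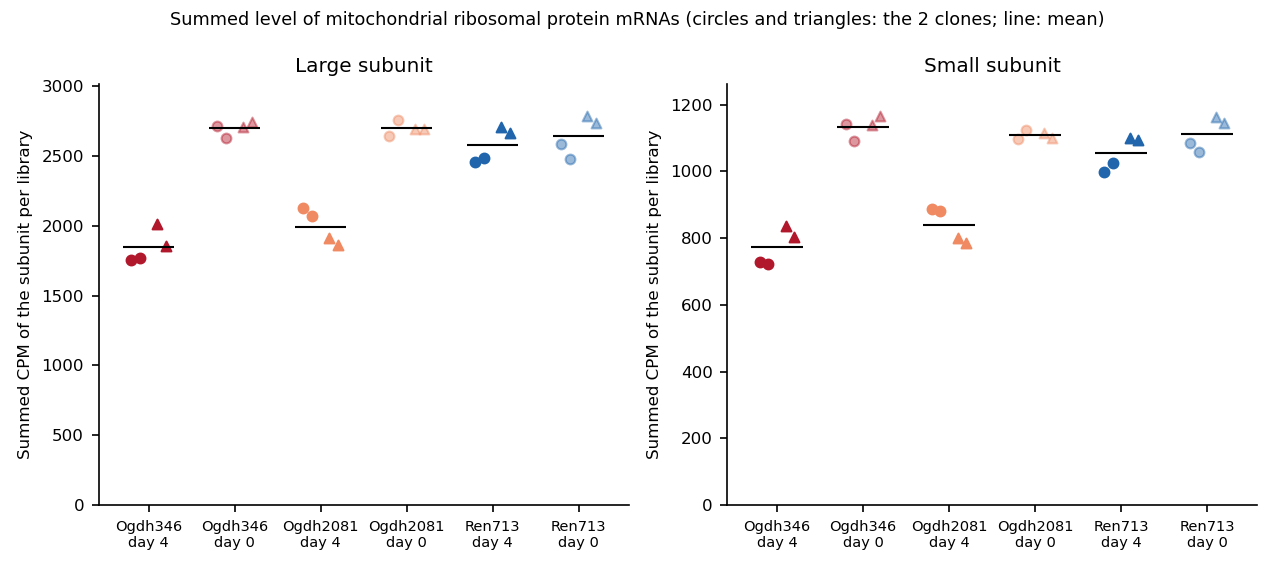
Summed CPM of the large (left) and small (right) subunit genes in each library, by hairpin and day; circles and triangles mark the 2 clones of a hairpin and lines mark the mean of 4 libraries. At day 4 the Ogdh libraries reach 1757 to 2126 CPM for the large subunit and 723.1 to 887.6 CPM for the small one, below all control libraries, which start at 2460 and 996.8 CPM.

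Of the 77 genes, 76 had enough counts to be tested, and 46 of the 76 fell in the mean net change at an adjusted p under 0.05, whereas 0 rose. Over all 14249 genes tested, 19.8% fell and 17.9% rose in this comparison by edgeR's quasi-likelihood test. At an unadjusted p under 0.05, 59 members were lower and 0 higher, and DESeq2 called 34 lower and 0 higher. The median of the 76 mean net changes was -0.42 log2, with a range of -1.09 to 0.16, beside a median of -0.00 over all genes tested. A negative mean net change was found for 74 of the 76 and for 50.2% of all genes. When each Ogdh clone was set against each control clone, 61 of the 76 had a lower change in all 8 pairs, as did 29.5% of all genes. The count rested on both control clones: 18 members fell without control clone 2 and 13 without control clone 7, with medians still between -0.45 and -0.39 over all fits that left out a clone or library. Without the clone as a replicate block 30 fell, as did 1603 of all 14249 genes.

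**Figure D2:**
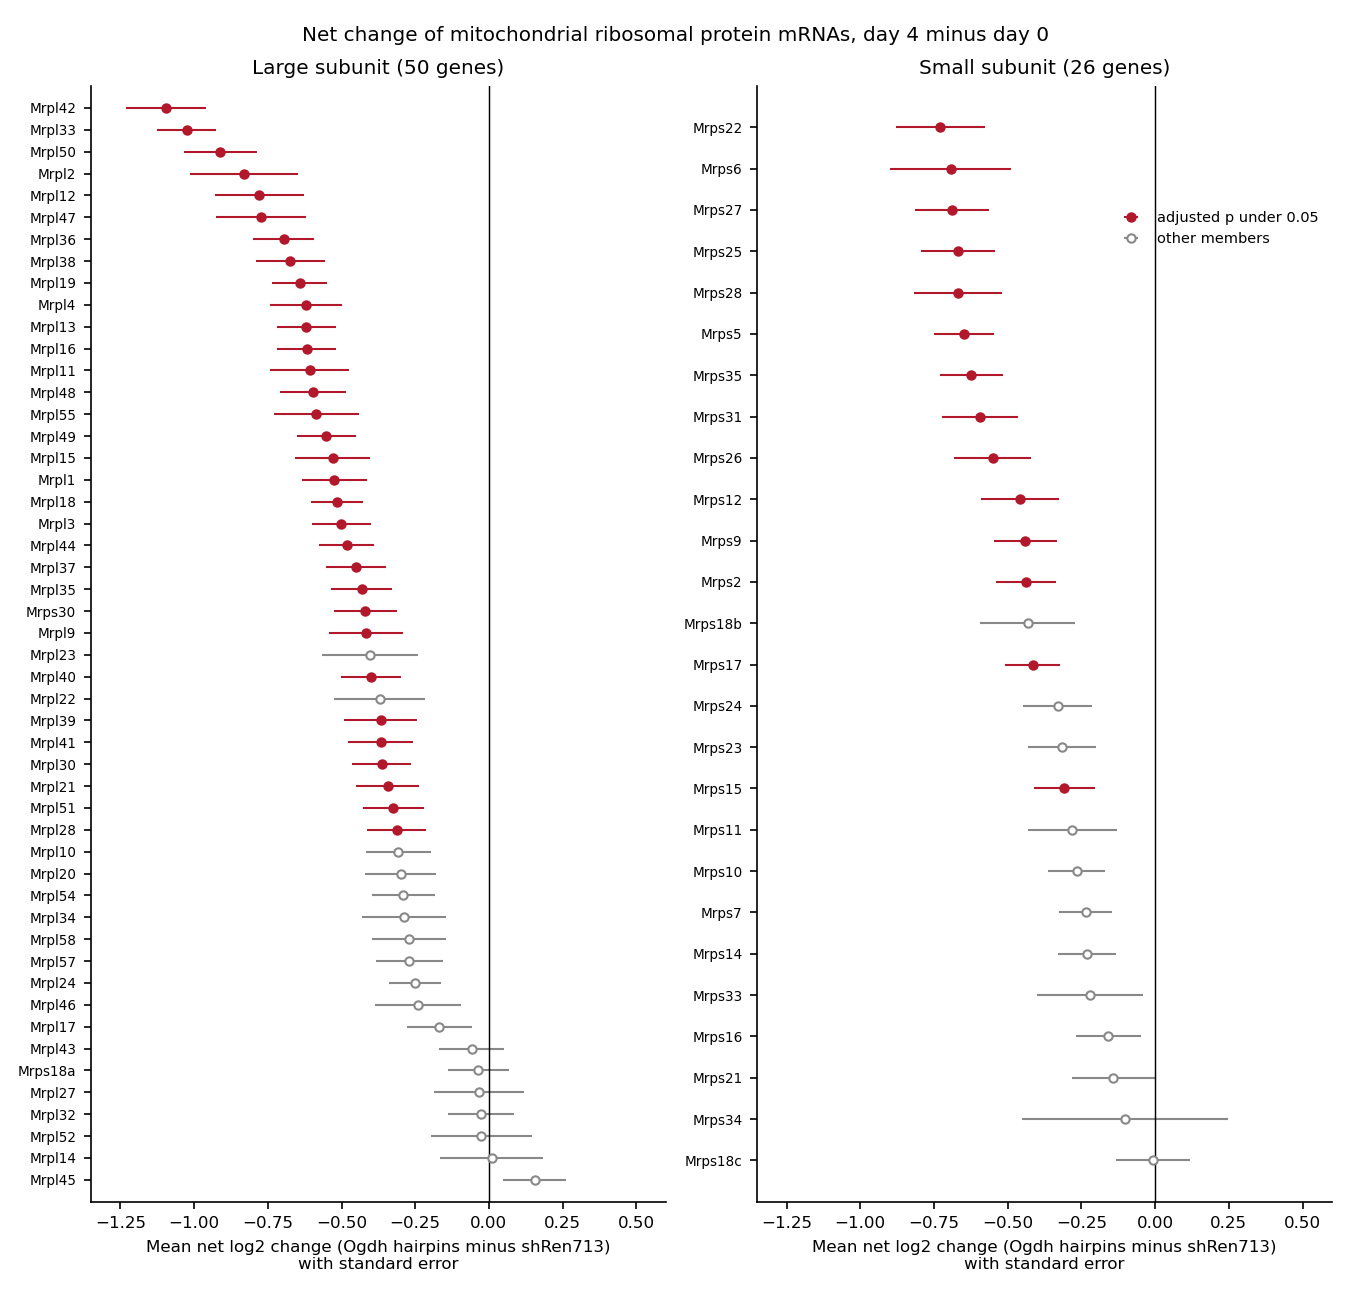
Mean net log2 change of each tested member with its standard error, large subunit left and small subunit right, sorted by size; filled points have an adjusted p under 0.05. The points run from -1.09 for Mrpl42 to 0.16 for Mrpl45, and only Mrpl14 and Mrpl45 lie above 0.

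Levels were also compared within each day. In these tests each clone enters at both days without a block, so residual degrees of freedom are overstated and p-values can be too small. At day 4, 54 of the 76 were lower with the Ogdh hairpins than with shRen713 at an adjusted p under 0.05, where 21.2% of all genes were. Without control clone 7 this count was 22. In 49 of the 76 each of the 8 Ogdh libraries lay below each of the 4 control libraries at day 4, a pattern shown by 20.1% of all genes, and in 0 of the 76 did they all lie above. At day 0, 0 of the 76 differed by edgeR, as did 0% of all genes; 1 had an unadjusted p under 0.05, DESeq2 called 0, and the differences ran from -0.32 to 0.23 log2.

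In the large subunit 32 of 50 tested genes fell, with a median of -0.41. The lowest mean net change was that of Mrpl42, a mitochondria-specific protein (chromosome 10, 95480805 to 95501940, minus strand, GRCm38). Its level was 26.3 to 41.2 CPM (median 32.99) in the 8 Ogdh libraries at day 4 and 55.3, 54.1, 70.1 and 66.8 CPM in the 4 control libraries at day 4. At day 0 it was 61.8 to 71.2 CPM (median 68.3) with the Ogdh hairpins and 55.1, 46.5, 70.3 and 61.0 CPM with shRen713. All Ogdh libraries at day 4 stood below all other libraries. The mean net change was -1.09 ± 0.14 log2 (SE), with an adjusted p of 0.000465.

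Mrpl33, the homologue of bacterial bL33 (chromosome 5, 31596935 to 31664384, plus strand), had 45.2 to 81.1 CPM (median 68.7) in the Ogdh libraries at day 4 and 108, 113, 151 and 154 CPM in the control libraries at day 4. Day 0 values were 107 to 170 CPM (median 146) with the Ogdh hairpins and 115, 122, 157 and 174 CPM with shRen713. The 2 control clones differed from each other at both days, yet the lowest control library exceeded the highest Ogdh library at day 4. The mean net change was -1.02 ± 0.10, with an adjusted p of 0.000165, the smallest of any member.

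Mrpl50, also mitochondria-specific (chromosome 4, 49512596 to 49521093, minus strand), had 21.97 to 32.9 CPM (median 26.1) in the Ogdh libraries at day 4 and 42.9, 45.4, 46.0 and 50.6 CPM in the control libraries at day 4. Day 0 values were 45.2 to 53.8 CPM (median 47.9) with the Ogdh hairpins and 42.8, 39.96, 48.7 and 41.9 CPM with shRen713. The groups overlapped at day 0 and did not at day 4. Its mean net change was -0.91 ± 0.12, with an adjusted p of 0.000708. Mrpl2, the uL2 homologue near the peptidyl transferase centre (chromosome 17, 46646229 to 46650139, plus strand), had a median of 21.9 CPM in Ogdh libraries and 41.9 CPM in control libraries at day 4. It fell by 0.83 (adjusted p = 0.0077). Mrpl47, the uL29 homologue, fell by 0.77 (adjusted p = 0.00436), though 24.2% of its exon bases are shared with genes on the opposite strand.

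Mrpl12 forms the flexible stalk that binds elongation factors and is anchored through Mrpl10, with Mrpl11 at the stalk base. Mrpl12 (chromosome 11, 120484613 to 120489065, plus strand) had 32.8 to 48.4 CPM (median 38.8) in the Ogdh libraries at day 4 and 62.4, 69.8, 69.8 and 73.8 CPM in the control libraries at day 4. At day 0 it had 70.7 to 84.3 CPM (median 76.7) with the Ogdh hairpins and 74.6, 68.4, 86.2 and 80.8 CPM with shRen713. Its mean net change was -0.78 ± 0.15 (adjusted p = 0.00389). Mrpl11 fell too, by 0.61 (adjusted p = 0.00669). Mrpl10 did not pass the test, with -0.31 ± 0.11 and an adjusted p of 0.0542.

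The mRNAs of proteins at the exit side had uneven values. Mrpl45, which in human mitochondria anchors the ribosome to the inner membrane at the tunnel exit, had the highest mean net change of all, 0.16 ± 0.11 (adjusted p = 0.282). Its level was 49.8 to 65.8 CPM (median 55.3) in the Ogdh libraries at day 4 and 49.3, 48.2, 55.1 and 53.6 CPM in the control libraries at day 4, which overlap. Mrpl23, the uL23 homologue at the exit, had 7.43 to 11.6 CPM in Ogdh libraries and 12.3 to 13.3 CPM in control libraries at day 4, with a mean net change of -0.40 ± 0.16 (adjusted p = 0.0814). Mrpl23 was also lower at day 4 than at day 0 in the control clones, by 0.50 log2 (adjusted p = 0.0577). Mrpl14, whose bacterial homologue takes part in a bridge between the subunits, and Mrpl52 had mean net changes of 0.01 ± 0.17 and -0.03 ± 0.17. The sign of each turned under some alternatives, to -0.08 for Mrpl14 with total-count scaling and to 0.02 for Mrpl52 with upper-quartile scaling.

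Mrpl58, formerly ICT1, is a peptidyl-tRNA hydrolase that releases stalled ribosomes. It had 20.2 to 26.01 CPM in Ogdh libraries and 30.2 to 33.1 CPM in control libraries at day 4, and it was lower in that comparison of levels by 0.44 (adjusted p = 0.00835). Its mean net change of -0.27 ± 0.13 did not pass the test (adjusted p = 0.119), and its level at day 0 differed by -0.17 log2 (adjusted p = 1). Mrps30, a large-subunit protein despite its name, fell by 0.42 (adjusted p = 0.0137).

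Mrpl44, an RNase III-like protein of the large subunit (chromosome 1, 79776018 to 79781445, plus strand), reached its net change by another course. It had 59.6 to 66.9 CPM (median 63.5) in the Ogdh libraries at day 4 and 91.8, 88.5, 92.9 and 88.2 CPM in the control libraries at day 4. At day 0 it had 58.2 to 75.6 CPM (median 65.3) with the Ogdh hairpins and 61.0, 71.0, 62.9 and 73.9 CPM with shRen713. The control libraries at day 4 were thus the only high ones. Its change was -0.04 with shOgdh346 and -0.05 with shOgdh2081, neither past the test, and 0.44 ± 0.08 with shRen713 (adjusted p = 0.0157). The mean net change of -0.48 ± 0.09 had an adjusted p of 0.00405. Mrpl44 was the only one of the 76 to change in the control clones, and it rose there; 6.88% of all genes changed in either direction and 4.44% rose. At an unadjusted p under 0.05, 7 members were lower and 3 higher with shRen713, and DESeq2 called 1. The edgeR count of 1 was 0 without either control clone and between 0 and 3 over all fits that left out a clone or library. The median change of the 76 with shRen713 was -0.09.

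**Figure D3:**
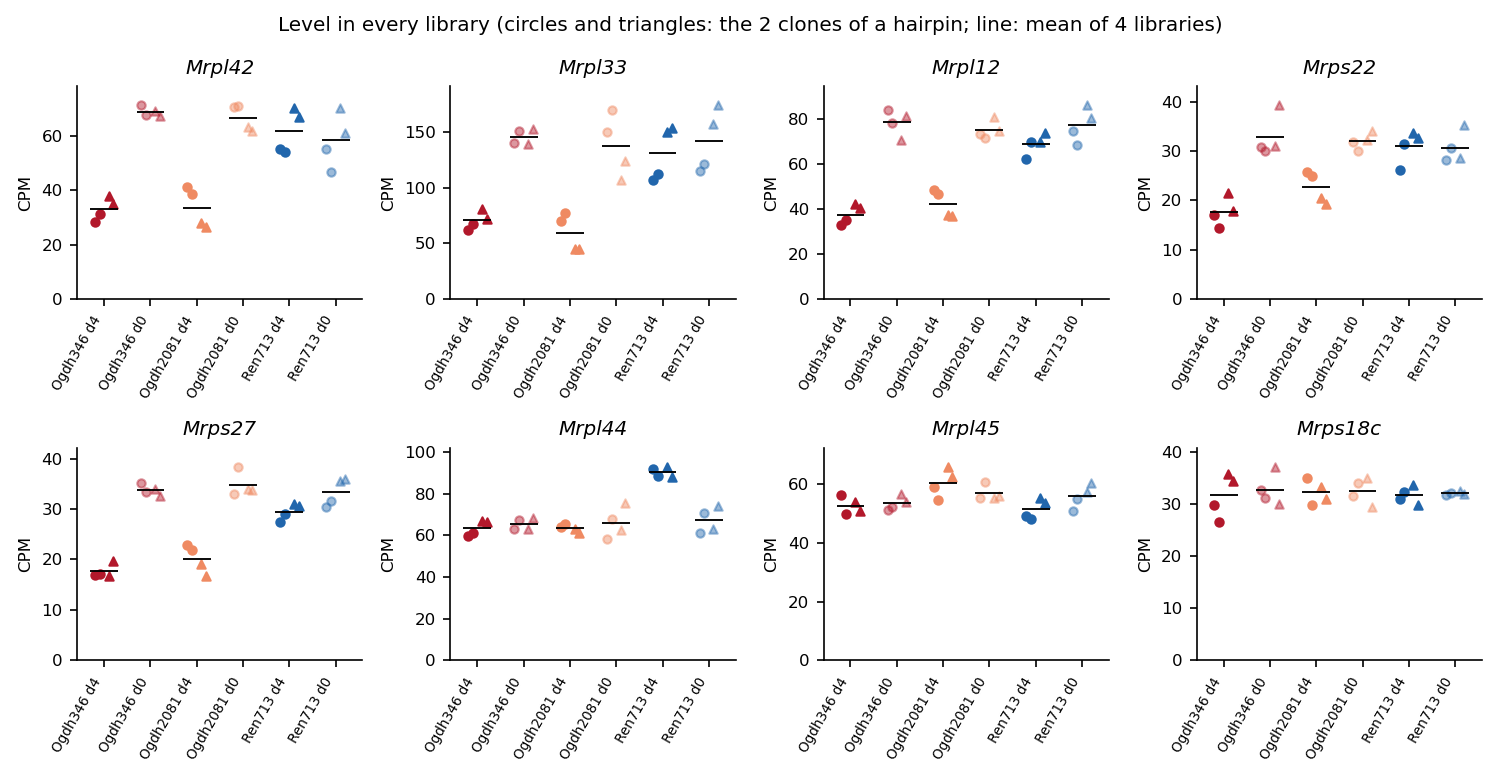
CPM of 8 members in every library, by hairpin and day; circles and triangles mark the 2 clones and lines the mean of 4 libraries. Mrpl42, Mrpl33, Mrpl12, Mrps22 and Mrps27 are low in the Ogdh libraries at day 4, Mrpl44 is high in the control libraries at day 4, and Mrpl45 and Mrps18c overlap between the Ogdh and the control libraries at day 4.

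In the small subunit 14 of 26 genes fell, with a median of -0.42. The lowest value belonged to Mrps22, a mitochondria-specific protein whose human gene is mutated in combined respiratory chain deficiency (chromosome 9, 98588730 to 98601660, minus strand). It had 14.4 to 25.8 CPM (median 19.8) in the Ogdh libraries at day 4 and 26.2, 31.4, 33.6 and 32.6 CPM in the control libraries at day 4. At day 0 it had 29.9 to 39.2 CPM (median 31.4) with the Ogdh hairpins and 28.1, 30.5, 28.5 and 35.3 CPM with shRen713. The groups do not overlap at day 4, and they do at day 0. Its mean net change was -0.73 ± 0.15 (adjusted p = 0.00525).

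Mrps27, a pentatricopeptide repeat protein (chromosome 13, 99344786 to 99415562, plus strand), had 16.7 to 22.8 CPM (median 18.2) in the Ogdh libraries at day 4 and 27.4, 29.0, 31.0 and 30.6 CPM in the control libraries at day 4. At day 0 it had 32.6 to 38.4 CPM (median 33.8) with the Ogdh hairpins and 30.4, 31.6, 35.6 and 35.9 CPM with shRen713. Its mean net change was -0.69 ± 0.13 (adjusted p = 0.00294), though 24.2% of its exon bases are shared with a gene on the opposite strand. Mrps5, the uS5 homologue (chromosome 2, 127587222 to 127606829, plus strand), had a median of 33.1 CPM in Ogdh libraries and 49.2 CPM in control libraries at day 4. It fell by 0.65 (adjusted p = 0.00138), the smallest adjusted p in the small subunit.

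Mrps6, the bS6 homologue, had 5.54 to 10.9 CPM in Ogdh libraries and 12.1 to 14.7 CPM in control libraries at day 4 and fell by 0.69 (adjusted p = 0.0256). Of its exon bases 19.9% overlap Gm49711 and Slc5a3 on the same strand. Mrps28, the bS1 homologue, had a median of 17.9 CPM in Ogdh libraries and 32.4 CPM in control libraries at day 4 and fell by 0.67 (adjusted p = 0.0077). Mrps25 fell by 0.67 as well (adjusted p = 0.00329), but 69.8% of its exon bases are shared with Nr2c2 on the opposite strand. Without a stated strand setting, reads of such pairs cannot be told apart.

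Mrps12, the uS12 homologue of the decoding centre, had 20.5 to 28.8 CPM in Ogdh libraries and 31.96 to 38.6 CPM in control libraries at day 4 and fell by 0.46 (adjusted p = 0.0236). Mrps7, the uS7 homologue of the small-subunit head, had a mean net change of -0.24 ± 0.09 that missed the threshold (adjusted p = 0.0678). Of the 3 relatives of bacterial S18, Mrps18b stood at -0.43 ± 0.16 (adjusted p = 0.0604), Mrps18a at -0.04 ± 0.10 and Mrps18c at -0.01 ± 0.13, so none passed the test. Other genes overlap 30.5% of the exon bases of Mrps18b and 23.2% of those of Mrps18c. Mrps18c had 26.6 to 35.8 CPM (median 32.05) in the Ogdh libraries at day 4 and 31.0, 32.4, 33.7 and 29.8 CPM in the control libraries at day 4, which overlap. With upper-quartile scaling the values were 0.009 for Mrps18a and 0.04 for Mrps18c. Mrps21, the bS21 homologue, had -0.14 ± 0.14.

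Mrps34 had the least certain value of the 76, -0.10 ± 0.35, at only 2.82 to 5.76 CPM in Ogdh libraries and 5.34 to 8.16 CPM in control libraries at day 4. Of its exon bases 77.8% overlap Mapk8ip3 and Nme3. Mrpl53 was the single member not tested. It had between 0 and 3 counts in a library, 13 in all 24, and 88.0% of its exon bases overlap Ccdc142os and Gm42688, so its level cannot be read from these counts. Counts with and without such overlap were close: 19 of the 32 tested genes with any exon overlap fell, with a median of -0.43, and 27 of the 44 with none fell, with a median of -0.40.

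Proteins of either class had similar values. Among homologues of bacterial proteins 28 of 46 fell, with a median of -0.42, and among mitochondria-specific proteins 18 of 30 fell, with a median of -0.41. Within the large subunit 20 of 30 homologues fell (median -0.47) and 12 of 20 mitochondria-specific genes fell (median -0.37). Within the small subunit 8 of 16 homologues (median -0.32) and 6 of 10 mitochondria-specific genes (median -0.57) fell. Across the 76 genes Pearson's r between the mean net change and log2 CPM per kilobase was 0.12, and with the deposited length it was -0.24. Genes are not independent replicates, and these values are descriptions.

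The genes were lower with each of the Ogdh hairpins. In the net change of shOgdh346, 53 of 76 fell with a median of -0.49, where 18.4% of all genes fell. In the net change of shOgdh2081, 28 of 76 fell with a median of -0.32, where 14.2% of all genes fell. These comparisons share the control clones. Without control clone 2 the counts were 21 with shOgdh346 and 3 with shOgdh2081, and without control clone 7 they were 16 and 5. Without shOgdh346 clone 1 the count of 53 was 34, and without shOgdh2081 clone 5 the count of 28 was 13. Without the replicate block they were 30 and 5, where 1395 and 708 of all 14249 genes fell. With shOgdh2081 the share among members was then near that of all genes. Shares of all genes in the fits that left out a clone are not given here. The direct difference between the hairpins was negative for 69 of 76, with a median of -0.14 and a range of -0.55 to 0.20. Over all genes tested its median was -0.02. By edgeR 0 of the 76 passed at an adjusted p under 0.05, as did 0.105% of all genes; 8 had an unadjusted p under 0.05, all lower with shOgdh346, and DESeq2 called 0.

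Taken without the control, 63 of the 76 were lower at day 4 than at day 0 with shOgdh346, where 29.3% of all genes were, and 54 were lower with shOgdh2081, where 25.9% were. The gene-by-gene changes of the hairpins had a Pearson correlation of 0.90 over the 76 members, beside 0.88 over all genes tested. By clone, the median change of the 76 was -0.65 in shOgdh346 clone 1, -0.48 in shOgdh346 clone 5, -0.34 in shOgdh2081 clone 3 and -0.48 in shOgdh2081 clone 5, against -0.06 and -0.07 in control clones 2 and 7. The summed neutrophil markers at day 4 were 45480 and 44950 CPM in shOgdh346 clone 1, 20550 and 19050 CPM in shOgdh346 clone 5, 6829 and 6512 CPM in shOgdh2081 clone 3, and 12330 and 11990 CPM in shOgdh2081 clone 5. The clone with the highest marker level had the lowest median and the Ogdh clone with the lowest marker level had the highest median, and their part in the result was not tested.

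**Figure D4:**
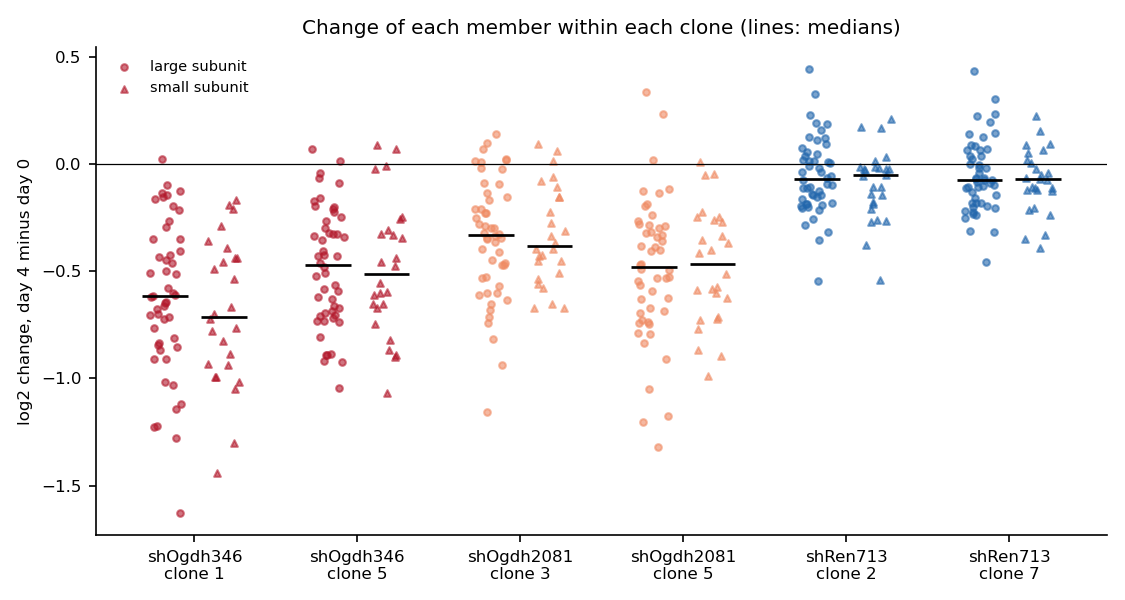
The log2 change, day 4 minus day 0, of each tested member in each of the 6 clones, with circles for the large and triangles for the small subunit and lines at the medians. Medians lie between -0.71 and -0.33 in the Ogdh clones and between -0.08 and -0.05 in the control clones, and the subunits lie side by side within each clone.

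Per kilobase of deposited length the levels spanned more than an order of magnitude. For 70 of the members this length equalled that of all annotated exons of the gene joined, rather than that of a single transcript. The order per kilobase thus reflects this length as well as the level. Mrpl34 and Mrpl48 had similar means over all 24 libraries, 36.75 and 31.18 CPM, but lengths of 607 and 8152 bases. The highest means over all 24 libraries were those of Mrpl34, 60.5 CPM per kb, Mrpl54 with 54.6, Mrpl18 with 53.0 and Mrpl20 with 50.2 CPM per kb, but the order below Mrpl34 differed between groups. With shOgdh2081 at day 4, Mrpl18 averaged 41.4 CPM per kb, below Mrpl43 with 43.6 and Mrpl20 with 43.5 CPM per kb. In the control libraries at day 4, Mrpl18 with a mean of 59.7 and Mrpl44 with 54.95 CPM per kb stood above Mrpl54. There the range of Mrpl34, 57.8 to 70.9 CPM per kb, included that of Mrpl18, 58.9 to 60.2, and lay above that of Mrpl54, 52.5 to 56.7, which overlapped that of Mrpl20, 46.6 to 55.4. Of these genes Mrpl18, the uL18 homologue, fell: it had 53.2 to 60.9 CPM (median 55.2) in the Ogdh libraries at day 4 and 84.1, 84.0, 82.4 and 83.5 CPM in the control libraries at day 4, with a mean net change of -0.52 ± 0.09 (adjusted p = 0.00206). Mrpl34 (-0.29), Mrpl54 (-0.29) and Mrpl20 (-0.30) did not pass the test. At the low end, above Mrpl53, stood Mrpl23 with 2.86, Mrps34 with 3.02 and Mrpl48 with 3.83 CPM per kb. Mrpl48 fell by 0.60 (adjusted p = 0.0032). Their deposited lengths were 4883 bases for Mrpl23, 2064 bases for Mrps34 and 8152 bases for Mrpl48.

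Lists of genes that build or serve the mitochondrial ribosome are set here beside the 19.8% of all genes that fell in the mean net change. Of 25 assembly factors 12 fell, 48.0%, and 0 rose, while 13 did not pass the test; the median was -0.35. Fastkd2, an RNA-binding protein of the RNA granule, fell by 0.76 (adjusted p = 0.00114). Tfb1m, the dimethyltransferase of the small ribosomal RNA, fell by 1.12 (adjusted p = 0.00176), and the GTPases Gtpbp10 and Mtg1 fell by 0.91 and 0.85 (adjusted p = 0.00183 and 0.00194). Of 14 tested translation factors 10 fell, 71.4%, and 0 rose, with a median of -0.43. Guf1, an elongation factor 4 homologue, had a median of 31.8 CPM in Ogdh libraries and 76.8 CPM in control libraries at day 4 and fell by 1.27 (adjusted p = 8.21e-05). Lrpprc, which stabilises mitochondrial mRNAs, fell by 0.68 (adjusted p = 0.00201), and Taco1, the activator of Co1 translation, fell by 0.95 (adjusted p = 0.00226). Tsfm, the elongation factor Ts, fell by 0.77 (adjusted p = 0.00314).

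Ribosomal proteins of this particle under other names were more mixed: 2 of 5 fell, Ptcd3 by 0.43 (adjusted p = 0.0043) and Gadd45gip1 by 0.64 (adjusted p = 0.0108). Dap3, Chchd1 and Aurkaip1 had -0.10, -0.13 and 0.12 and did not pass. Of 13 mRNAs encoded by mitochondrial DNA 7 could be tested, and by edgeR 0 of the 7 passed, with a median of 0.10. Their values ran from -0.41 for mt-Nd1 (adjusted p = 0.0566) to 0.41 for mt-Co1 (adjusted p = 0.0536). Of 12 tested regulators of nuclear genes for mitochondria 6 fell and 1 rose, where 19.8% of all genes fell and 17.9% rose. Pprc1 and Ppargc1b, coactivators of the PGC-1 family, fell by 0.64 and 1.33 (adjusted p = 0.000779 and 0.00281). Tfam, the packaging and transcription factor of mitochondrial DNA, fell by 0.64 (adjusted p = 0.00201), and Gabpa, an ETS factor, by 0.47 (adjusted p = 0.00352). Esrra, a nuclear receptor, rose by 0.51 (adjusted p = 0.00939).

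The cytosolic ribosome offers the nearest counterpart among the other genes. Of 75 cytosolic ribosomal protein genes 10 fell in the mean net change and 0 rose; their share of 13.3% was below the 19.8% of all genes. Their median was -0.21, beside 46 of 76 (60.5%) and a median of -0.42 for the mitochondrial ones. The summed level of the cytosolic genes at day 4 was 29660 to 36710 CPM in the Ogdh libraries and 38540 to 39880 CPM in the control libraries. These ranges did not overlap either, so this separation at day 4 is not particular to the mitochondrial family. At day 0 the cytosolic sums were 38380 to 46070 CPM with the Ogdh hairpins and 39060 to 46100 CPM with shRen713. In every clone library 1 stood above library 2 at day 0. The smallest adjusted p among them was that of Rpl22, which fell by 0.49 (adjusted p = 0.0165). Their own medians by clone were -0.61 in shOgdh346 clone 1, -0.22 in shOgdh346 clone 5, -0.12 in shOgdh2081 clone 3 and -0.42 in shOgdh2081 clone 5, and -0.10 in control clone 2 and -0.14 in control clone 7. The difference between these families was not tested, since no test of lists was made.

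**Figure D5:**
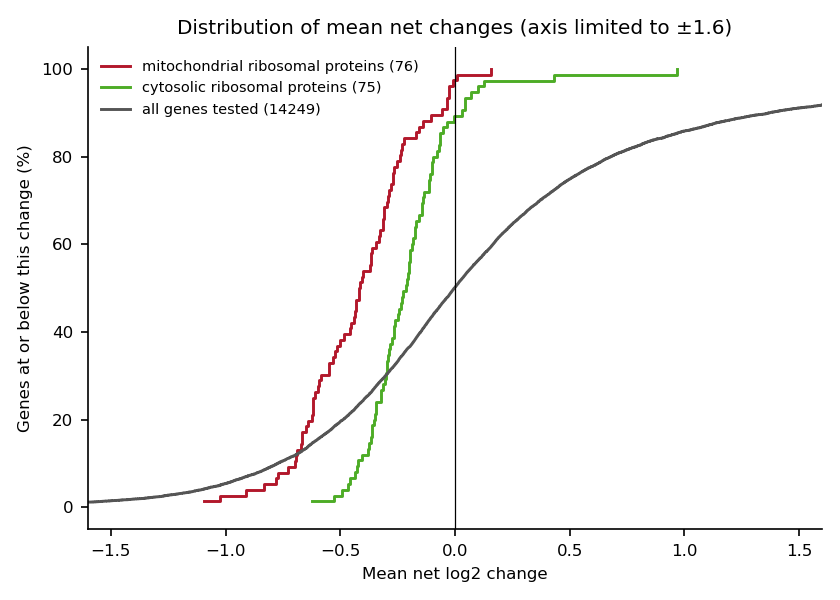
Share of genes at or below each mean net log2 change, for 76 mitochondrial ribosomal proteins, 75 cytosolic ribosomal proteins and 14249 genes tested. The curves cross the middle at -0.42, -0.21 and -0.00.

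Promoters were read to see whether genes that moved together share simple motifs. RefSeq promoters (GRCm38.p6, 250 bases before to 50 after a start) were found for 68 of the 77 genes, 74 promoters in all. An ETS core, CCGGAAG on either strand, stood in 35.1% of them, in 17.5% of promoters of tested genes and in 8.86% of all 32851 promoters; cytosolic ribosomal protein promoters held it in 35.9%. The YY1 motif AAGATGGC stood in 16.2%, against 4.42% and 2.75%. The palindromic NRF1 motif, with its centre allowed to vary by 1 base, stood in 17.6%, against 9.82% and 4.60%, and its strict form, which lies within it, in 4.05%, against 2.06% and 0.971%. The E-box CACGTG (9.46%, 9.87% and 7.15%) and CCAAT (39.2%, 38.0% and 37.4%) were about as frequent as elsewhere.

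Within the family the motifs did not sort the genes that fell in one way. With an ETS core 10 of 25 tested genes fell, with a median of -0.32, and without it 29 of 42 fell, with a median of -0.42. With a CCAAT match 20 of 25 fell, with a median of -0.45, and without it 19 of 42 fell, with a median of -0.34. With a YY1 match 7 of 12 fell and without it 32 of 55. A match is a description of letters and not a binding site. The stretches below are the 110 bases before the RefSeq start, 5′ to 3′ on the gene's strand, for 4 genes that fell, 2 from each subunit, and for Mrpl45, which did not fall; capitals mark ETS, NRF1, YY1, E-box and CCAAT matches.
Mrpl33 (chr5:31613841-31613950, plus strand): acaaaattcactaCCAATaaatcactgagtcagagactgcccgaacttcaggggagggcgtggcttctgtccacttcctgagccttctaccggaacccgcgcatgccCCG
Mrpl50 (chr4:49521084-49521193, minus strand): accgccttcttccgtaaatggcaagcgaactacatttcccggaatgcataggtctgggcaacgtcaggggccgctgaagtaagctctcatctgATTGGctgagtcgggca
Mrps22 (chr9:98601680-98601789, minus strand): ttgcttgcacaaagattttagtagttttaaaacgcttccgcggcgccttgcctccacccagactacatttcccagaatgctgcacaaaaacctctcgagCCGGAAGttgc
Mrps27 (chr13:99344676-99344785, plus strand): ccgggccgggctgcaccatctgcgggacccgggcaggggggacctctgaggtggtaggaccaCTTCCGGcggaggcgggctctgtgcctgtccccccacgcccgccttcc
Mrpl45 (chr11:97315606-97315715, plus strand): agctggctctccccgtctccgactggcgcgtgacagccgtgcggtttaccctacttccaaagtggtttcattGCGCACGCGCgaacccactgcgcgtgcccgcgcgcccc
In these stretches Mrps22 and Mrps27 each carry an ETS core, beginning at positions -11 and -48 from the start. Mrpl50 carries a CCAAT box on the opposite strand, and Mrpl33 both kinds, its ETS core running past the end of the stretch. Outside the stretches, Mrps27 has a YY1 match at 15 and Mrpl50 another CCAAT match at -233. Mrpl45 carries an NRF1 match in its stretch and others outside it, at -120 and 16. The stretches are examples and do not stand for the family. Across the family 10 of 25 genes with an ETS core fell, against 29 of 42 without it. With an NRF1 match, its centre free, 7 of 13 fell, against 32 of 54 without it.

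Mrpl46 and Mrps11 lie head to head on chromosome 7, with 5′ ends that overlap on opposite strands, so that their upstream stretches are partly the same DNA. Mrps11, a small-subunit gene, carries a YY1 match upstream, in capitals.
Mrps11 (chr7:78783021-78783130, plus strand): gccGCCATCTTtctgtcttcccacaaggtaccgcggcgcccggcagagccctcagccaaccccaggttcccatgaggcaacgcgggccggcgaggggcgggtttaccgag
Mrpl46 (chr7:78783090-78783199, minus strand): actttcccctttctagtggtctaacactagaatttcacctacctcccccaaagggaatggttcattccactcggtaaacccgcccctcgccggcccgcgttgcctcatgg
Mrpl46 and Mrps11 had mean net changes of -0.24 ± 0.15 and -0.28 ± 0.15, and neither passed the test (adjusted p = 0.228 and 0.177).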

How the data were processed

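Sequencing was single-end, on TruSeq libraries of polyA-selected RNA, per the labels' protocols. The authors deposited 1 table of raw counts per Ensembl gene, with gene positions and a length. The submitters' processing notes name featureCounts 1.6.3, STAR 2.6.1a, Trimmomatic 0.36, FastQC 0.11.5 and the build mm10 (GRCm38), while the labels' extract protocol names a human build and an RPKM matrix, which the whole-number mouse counts do not match. The strand setting and the multi-mapping rule were not given in the sources used here, so overlapping genes are uncertain. Deposited coordinates equalled those of GENCODE vM21 for 71 of the 77 genes.

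The clone was taken as the replicate. Its 2 libraries of a day were summed, giving 12 sums of counts. filterByExpr left 14249 genes, which were scaled by TMM and tested with edgeR 4.0.16 (R 4.3.3), robust quasi-likelihood, blocking on clone, with 1 day 4 coefficient per hairpin. Adjusted p is Benjamini-Hochberg over all 14249 genes, with a threshold of 0.05. Levels within a day were tested in 6 groups of the same sums, in which each clone enters at both days. The residual degrees of freedom of these level tests are therefore overstated, and their p-values can be too small. P-values measure the spread between these clones, 2 per hairpin, derived from 1 cell line. Pairing by clone comes from the labels; deviations of a clone from its group correlated between day 4 and day 0 at 0.60 to 0.84 across genes. In no pair of libraries of 1 clone and day were differences within counting noise over all genes. Chi-square per gene was 6.78 to 10.3 at day 0 and 1.60 to 2.94 at day 4. Over the members alone the value was 0.80 to 3.41, and near or below 1 in 3 pairs. At day 0, library 1 exceeded library 2 in every clone in the summed cytosolic ribosomal protein level and in the share of mitochondrially encoded counts. With day 0 replicate 1 or 2 alone, the members' median mean net change was -0.43 and -0.38. CPM used TMM-scaled library sizes, per kilobase of deposited length where stated. The standard errors hold both counting error and the spread between clones.

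Members and lists were chosen with earlier results of these data known. Named members are the 6 largest falls and 3 most positive values of each subunit, the 4 highest and 4 lowest levels per kilobase, members with set roles and members below the filter. Up to 4 genes of each other list were named by smallest p; Mrpl46 and Mrps11 were named for their position. Alternatives were RLE, upper-quartile and total-count scaling, other filters, DESeq2 1.42.0, no clone block, separate libraries, each day 0 replicate alone, and leaving out each clone and library. The fit was tested on simulated data.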

Additional observations from a re-analysis of the deposited data

Results flagged for a closer look

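Of 222 groups of 4 libraries tested for a library far from the others (33 named members and 4 summed levels in 6 groups each), 10 were picked out, and chance picks out about 1 in 20. With shOgdh346 at day 4, clone 5 library 2 was low for Mrpl52 at 14.8 CPM and high for Mrps27 at 19.7 CPM, and clone 1 library 2 was low for Mrps30 at 23.9 CPM. With shRen713 at day 4, clone 7 library 1 was high for Mrps34 at 8.16 CPM and low for Mrpl10 at 53.1 CPM. With shOgdh346 at day 0, clone 5 library 1 was high for Mrpl50 at 52.0 CPM and clone 5 library 2 was high for Mrps22 at 39.2 CPM. With shOgdh2081 at day 0, clone 3 library 2 was high for Mrpl45 at 60.8 CPM, and it stood apart from 3 near-identical values for Mrpl34 at 42.8 CPM. With shRen713 at day 0, clone 2 library 1 was high for Mrpl23 at 19.3 CPM. None of the 4 summed levels was picked out in any group.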

How the results depend on the processing

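Of 41 alternative fits, 30 left out 1 clone or library. In all 41, 68 of the 76 members had a negative mean net change, and 9 of the 46 that fell were called each time (Mrps5, Mrpl12, Mrpl13, Mrpl16, Mrpl18, Mrpl19, Mrpl36, Mrpl42 and Mrpl50); 37 lost the call in at least 1 fit and 18 others gained one. Without the replicate block by clone, 30 members fell in the mean net change, 30 with shOgdh346 and 5 with shOgdh2081. Over all 14249 genes 1603, 1395 and 708 fell. With the replicate block and separate libraries 62, 62 and 53 members fell, as did 3901, 3778 and 3495 of 12652 genes. With shOgdh2081, 18 fell by DESeq2 and 44 with 24 separate libraries. Treating the 24 libraries as separate counts libraries of 1 clone as independent. It gave 12 and, with a library-number block, 21 members changed with shRen713, and 4 and 7 that differed between the Ogdh hairpins. It also gave 1 that rose with shOgdh2081 in each and, with that block, 1 that rose in the mean net change. With that block, among 12652 genes, 2629 rose and 2303 fell with shRen713. Between the Ogdh hairpins 869 differed upward and 626 downward. These shares of all genes were above those of the members. With shRen713, 2 changed with no filter and 3 and 0 with day 0 replicate 1 or 2 alone. Leaving out a clone or library gave 13 to 54 members that fell in the mean net change, 16 to 56 with shOgdh346, 3 to 33 with shOgdh2081, 22 to 58 in the level at day 4 and 0 to 3 changed with shRen713. The medians with shOgdh2081 ran from -0.42 to -0.28 over all members, -0.42 to -0.29 in the large subunit and -0.41 to -0.27 in the small one. Total-count scaling moved the median of all genes by -0.09 in the mean net change and by -0.12 with shOgdh346, where the large-subunit median became -0.62; the share of calls that were lower became 64.5%, against 52.9%. Uncalled members near 0 changed sign: Mrpl14 had -0.075 with total counts, -0.010 with no filter and -0.21 with day 0 replicate 2 alone. Mrpl52 had 0.0038 with RLE, 0.019 with upper quartile, 0.0024 with the stricter filter, 0.0029 with DESeq2 and 0.087 with day 0 replicate 1 alone. Mrps18a had 0.0093 with upper quartile. Mrps18c had 0.0225 with RLE, 0.038 with upper quartile, 0.0209 with the stricter filter, 0.0225 with DESeq2, 0.0145 and 0.0135 with 24 libraries and 0.082 with day 0 replicate 2 alone. Mrps34 had 0.19 with day 0 replicate 1 alone. Over fits that left out a clone or library these genes ran from -0.12 to 0.12, -0.18 to 0.11, -0.072 to 0.0029, -0.091 to 0.050 and -0.47 to 0.24. The cause was not tested. With 2 clones per hairpin, small changes can be missed.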
